A study of Mus musculus with 9 samples.

Results

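Extracellular nucleotides and adenosine are read by a small group of receptors, and 9 genes of that system were followed here, of 14771 genes in the expression table. Suramin is classically thought to act on nucleotide receptors. The 9 genes were chosen by symbol as such receptors, adenosine receptors or genes that set the supply of the receptors' ligands. They are the ATP-gated channels P2rx4 and P2rx7, the nucleotide receptors P2ry2, P2ry6 and P2ry14, the adenosine receptors Adora2a and Adora2b, the ATP-degrading ectoenzyme Entpd1 (CD39) and the ATP-release channel Panx1. All 9 were present in the table.

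The mRNA was measured by RNA sequencing in MH-S cells, an SV40-transformed line of mouse alveolar macrophages, with 3 libraries in each of 3 groups. The SUR group is labelled suramin, and the treatment protocol gives 200 µM suramin together with 1 µg/ml lipopolysaccharide (LPS) for 4 h. The LPS group received 1 µg/ml LPS, the bacterial outer membrane component that activates TLR4, for 4 h. The CON group received culture medium. The sample labels of SUR name suramin without LPS. From the protocol, SUR is read here as suramin with LPS, and on that reading there is no group with suramin alone. All groups are the same single cell line, and no label says that libraries of a group came from separate cultures.

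ATP leaves stressed or dying cells and opens P2X channels, while P2Y receptors are G protein-coupled and answer ATP, UTP, UDP or UDP-sugars. Ectoenzymes strip ATP to AMP and then adenosine, which acts on its own receptors and in macrophages is known for dampening inflammatory output. Suramin is a polysulphonated drug that blocks many P2 receptors and some ectonucleotidases, although the rat P2X4 receptor is known to be poorly sensitive to it and adenosine receptors are not P2 receptors. The measurements below are of mRNA, not of receptor protein or its occupation by the drug.

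Library totals lay between 15729402 and 16675250 counts, and 11281 genes had enough counts to be tested. Fold changes and adjusted p come from the quasi-likelihood test of edgeR, adjusted by Benjamini-Hochberg over these genes, and a gene is called where its adjusted p is under 0.05. Libraries with the same number resembled each other across groups, with those numbered 1 apart from the rest. Of 12 macrophage markers, 10 reached 1 TPM in every library, with sums of 6649 to 10848 TPM in SUR, 6110 to 10238 TPM in LPS and 6783 to 10712 TPM in CON. Marco and Siglecf, which define alveolar macrophages in tissue, were near 0: Marco was listed at 0 in 8 of 9 libraries and Siglecf did not exceed 0.13 TPM. Markers of epithelium (2 of 8 in the table) summed to at most 0.6 TPM, those of fibroblasts and endothelium (5 of 7) to at most 0.39 TPM, and those of lymphocytes and neutrophils (4 of 9) to at most 2.07 TPM. In bulk RNA, fewer cells carrying a transcript and less transcript per cell cannot be told apart.

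In untreated cells, 7 of the 9 genes were expressed, taken as at least 1 TPM (a level scaled for transcript length and library size) in all 3 CON libraries. P2rx7 stood first by a wide margin, at 364 ± 26.5 TPM (SD, n = 3), and ranked between 330 and 389 of the 14771 genes in CON. P2ry6 and P2rx4 followed at 44.3 ± 11.1 and 39.9 ± 1.69 TPM (SD, n = 3 each), with overlapping ranges. Entpd1 came next at 19.7 ± 5.74 TPM (SD, n = 3). P2ry2, Adora2b and P2ry14 lay at 11.0 ± 0.875, 8.66 ± 2.98 and 5.51 ± 0.815 TPM in CON (SD, n = 3 each), and neighbours in that order overlapped. Panx1 had 1.28, 1.11 and 0.72 TPM in CON and missed the level in 1 library, and Adora2a had 0.04, 0.08 and 0.04 TPM.

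**Figure D1:**
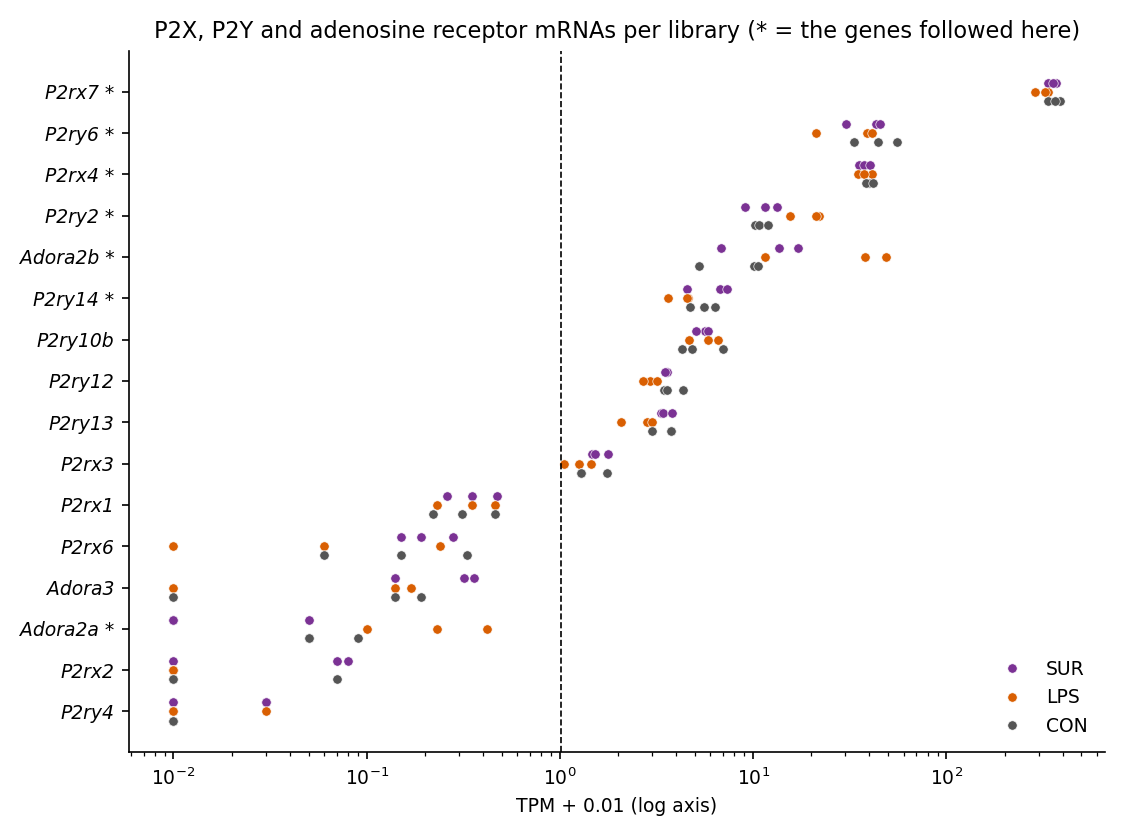
TPM + 0.01 on a log axis for the 16 genes taken by symbol as P2X, P2Y and adenosine receptors, P2ry10b among them. There is 1 point per library, with SUR, LPS and CON as purple, orange and grey points. The dashed line is 1 TPM and asterisks mark the genes followed here; P2rx7 lies between 289 and 389 TPM, above every other receptor.

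P2rx7 encodes the low-affinity ATP channel that opens when extracellular ATP is high and is the best-known trigger of the NLRP3 inflammasome in macrophages. Its levels were 337, 370.4 and 358 TPM in SUR, 289, 334 and 323 TPM in LPS, and 336, 389 and 366 TPM in CON. Every LPS library lay below every SUR and every CON library in TPM, but the ranges overlapped in CPM (counts over library size, with TMM factors from the bulk of genes). The TPM scale moved the median tested gene by -0.12 in LPS against CON and by 0.14 in SUR against LPS on the log2(TPM + 0.1) scale. On the count scale the log2 fold change was -0.11 in LPS against CON (95% interval -0.35 to 0.14, edgeR adjusted p = 0.612). With the library number as a block, P2rx7 was called lower in LPS, with a log2 fold change of -0.11 (edgeR adjusted p = 0.032). SUR against LPS gave 0.07 (95% interval -0.18 to 0.31, edgeR adjusted p = 0.750). P2rx7 made up 74.5 ± 2.26% of the summed TPM of the 16 receptor genes in SUR, 69.4 ± 4.37% in LPS and 74.6 ± 1.97% in CON (SD, n = 3 each).

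P2rx4, the high-affinity ATP channel, lies beside P2rx7 on the same strand. In GRCm38 P2rx7 spans chromosome 5 from 122643927 to 122692336 and P2rx4 spans 122707518 to 122729739, with a gap of 15181 bases. P2rx4 had 35.3, 37.5 and 40.1 TPM in SUR, 35.0, 41.3 and 37.6 TPM in LPS, and 39.9, 38.3 and 41.6 TPM in CON. The groups overlapped. The log2 fold change was 0.04 in LPS against CON (95% interval -0.16 to 0.25, edgeR adjusted p = 0.843) and turned negative under upper-quartile scaling and on the TPM and FPKM scales. SUR against LPS gave -0.15 (95% interval -0.36 to 0.05, edgeR adjusted p = 0.306), a fall that was called with the library number as a block (edgeR adjusted p = 0.0463).

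P2ry2, the receptor for ATP and UTP that couples to Gq, was called in both LPS against CON and SUR against LPS. It had 9.03, 13.25 and 11.6 TPM in SUR, 15.5, 21.9 and 21.1 TPM in LPS, and 10.2, 10.7 and 11.9 TPM in CON. All LPS libraries lay above all SUR and CON libraries, while SUR and CON overlapped. P2ry2 rose 1.93-fold in LPS against CON (log2 fold change 0.95, SE 0.19, 95% interval 0.53 to 1.37, edgeR adjusted p = 0.00714). It fell 1.91-fold in SUR against LPS (log2 fold change -0.93, SE 0.19, 95% interval -1.36 to -0.52, edgeR adjusted p = 0.00882). Both calls held in each of the 20 alternative settings, with adjusted p of at most 0.032 for LPS against CON and 0.0379 for SUR against LPS. In SUR against CON the log2 fold change was 0.01 (95% interval -0.41 to 0.43, edgeR adjusted p = 0.999). The authors' deposited table gives 0.96 (q = 5.87e-06) for LPS against CON and -0.94 (q = 0.000342) for SUR against LPS.

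The other P2Y receptors varied between libraries. P2ry6, the UDP receptor, lies 21069 bases from P2ry2 on chromosome 7 (100937630 to 100975498, with P2ry2 from 100996568 to 101012053, both on the minus strand). P2ry6 had 30.4, 43.2 and 45.1 TPM in SUR, 21.1, 38.8 and 41.4 TPM in LPS, and 33.2, 44.4 and 55.3 TPM in CON. Its groups overlapped, and the library numbered 1 was the lowest in each. The log2 fold change was -0.27 in LPS against CON (95% interval -0.94 to 0.39, edgeR adjusted p = 0.644) and, with the library number as a block, -0.29, which was called lower in LPS (edgeR adjusted p = 0.011). In the fit without the block it was -0.01 without LPS library 1 and -0.09 without CON library 3. SUR against LPS gave 0.08 (95% interval -0.59 to 0.75, edgeR adjusted p = 0.9).

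P2ry14 (chromosome 3, 59114623 to 59153492, minus strand), the receptor for UDP-glucose and other UDP-sugars, was low. It had 4.56, 6.69 and 7.27 TPM in SUR, 3.62, 4.61 and 4.53 TPM in LPS, and 4.68, 6.31 and 5.53 TPM in CON. LPS libraries lay below all CON libraries in TPM but overlapped them in CPM. The log2 fold change was -0.27 in LPS against CON (95% interval -0.82 to 0.27, edgeR adjusted p = 0.5435). In SUR against LPS it was 0.40 (95% interval -0.14 to 0.94, edgeR adjusted p = 0.304), a rise that was called with the library number as a block (edgeR adjusted p = 0.0411).

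Adora2b, the low-affinity adenosine receptor that raises cAMP through Gs (chromosome 11, 62248984 to 62266452, plus strand), had the larger fold and the wider spread. It had 6.80, 13.6 and 17.1 TPM in SUR, 11.5, 37.9 and 49.0 TPM in LPS, and 5.24, 10.1 and 10.6 TPM in CON. All LPS libraries lay above all CON libraries, but LPS library 1 lay within the SUR range. Adora2b rose 4.11-fold in LPS against CON (log2 fold change 2.04, SE 0.56, 95% interval 0.78 to 3.30, edgeR adjusted p = 0.0339). This call was lost in 11 of 20 alternative settings. It held with DESeq2 (DESeq2 adjusted p = 0.000664) and with the library number as a block, at 1.98 (edgeR adjusted p = 1.85e-06). It was lost when CON library 1, 2 or 3, LPS library 2 or 3, or SUR library 2 was left out, with edgeR adjusted p of 0.0833, 0.0852, 0.0811, 0.0947, 0.117 and 0.055. It was also lost with only the 2 groups in the fit (edgeR adjusted p = 0.05005) and with limma-voom (limma-voom adjusted p = 0.0961). On the TPM and FPKM scales it was lost as well (limma adjusted p of 0.0583 to 0.0612). In SUR against LPS the log2 fold change was -1.54 (SE 0.54, 95% interval -2.77 to -0.31, edgeR adjusted p = 0.0888), which missed the threshold. With the library number as a block it was called lower in SUR, at -1.49 (edgeR adjusted p = 1.3e-05), and without LPS library 1 at -1.95 (edgeR adjusted p = 0.0131). SUR against CON gave 0.50 (95% interval -0.76 to 1.77, edgeR adjusted p = 0.934). The authors' deposited table gives 2.05 (q = 0.0201) for LPS against CON and -1.54 (q = 0.151) for SUR against LPS.

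The promoters of P2ry2 and Adora2b are shown because these were the called members. Of the 9 members, 7 had an entry in the promoter table, all but P2ry6 and Adora2a. Sequences are from RefSeq (GRCm38.p6), 250 bases before to 50 after the start, with GC boxes (GGGCGG, either strand) in capitals. P2ry2 is at chr7:101012004-101012303 on the minus strand and Adora2b at chr11:62248734-62249033 on the plus strand.
P2ry2 promoter: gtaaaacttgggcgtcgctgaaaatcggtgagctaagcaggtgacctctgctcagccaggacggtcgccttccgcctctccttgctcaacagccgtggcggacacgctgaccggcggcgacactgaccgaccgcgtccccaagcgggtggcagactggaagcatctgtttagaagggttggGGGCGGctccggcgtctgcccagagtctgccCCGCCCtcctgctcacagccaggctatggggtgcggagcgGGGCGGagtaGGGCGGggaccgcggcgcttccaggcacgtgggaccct
Adora2b promoter: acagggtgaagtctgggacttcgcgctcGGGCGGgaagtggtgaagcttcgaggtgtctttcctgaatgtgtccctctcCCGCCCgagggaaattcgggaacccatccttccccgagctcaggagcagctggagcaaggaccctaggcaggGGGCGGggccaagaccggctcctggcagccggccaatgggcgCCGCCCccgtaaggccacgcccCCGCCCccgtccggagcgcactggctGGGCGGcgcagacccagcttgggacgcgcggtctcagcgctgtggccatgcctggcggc
The P2ry2 window shown held 4 GC boxes and the Adora2b window 6. At least 1 GC box was found in 35.7% of 32851 windows of the same length, and 4 or more in 5.49%. Their GC contents were 67.3% and 70.0%, with 28 and 27 CG pairs, against a median of 52.7% and 7 CG pairs over all windows. An AP-1 site (TGANTCA, in 7.81% of windows), an interferon-stimulated response element (TTTC, any 2 bases, TTTC; 3.44%), an NF-kappaB site (GGGA, TT and CC with 1 base between each; 1.2%) and a cAMP response element (TGACGTCA, 1.79%) were searched on both strands, and these letters occurred in neither window. High GC content was not particular to the called members: the Entpd1 and Panx1 windows at the gene's start had 64.0% and 61.3% GC, with 23 and 25 CG pairs. A second P2ry2 window, from a start at 101011998 and not shown, held 4 GC boxes, with 71.0% GC and 30 CG pairs. Among windows of the other members, 1 of P2rx7 held 1 AP-1 site and 2 GC boxes, 2 of P2ry14 held 1 AP-1 site each, and that of P2rx4 held 1 GC box.

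Adora2a (chromosome 10, 75316877 to 75334792, plus strand), the high-affinity adenosine receptor that couples to Gs, was barely detected: 1, 0 and 0 counts in SUR, 2, 10 and 5 counts in LPS, and 1, 2 and 1 counts in CON. It was below the count filter and was not tested in the fit. Summed over libraries, LPS had 4.27 times the counts per library size of CON (exact 95% counting interval 1.39 to 17.4). SUR had 0.0573 times those of LPS (exact 95% counting interval 0.00137 to 0.366). These intervals cover counting error only and not the spread between libraries.

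Entpd1 (chromosome 19, 40612366 to 40742654, plus strand) is the ectoenzyme that hydrolyses ATP and ADP to AMP. It had 13.9, 26.45 and 26.5 TPM in SUR, 13.1, 23.3 and 23.8 TPM in LPS, and 13.02, 22.8 and 23.1 TPM in CON. The groups overlapped almost entirely, and library 1 was well below the other two libraries in each. The log2 fold change was 0.15 in LPS against CON (95% interval -0.64 to 0.93, edgeR adjusted p = 0.857). With the library number as a block it was 0.15 and called higher in LPS (edgeR adjusted p = 0.0245). SUR against LPS gave 0.01 (95% interval -0.77 to 0.80, edgeR adjusted p = 0.986).

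Panx1 (chromosome 9, 15000944 to 15045478) is a channel through which ATP leaves cells. It had 21, 22 and 14 counts in SUR, 17, 7 and 9 counts in LPS, and 25, 22 and 14 counts in CON. These were 1.09, 1.12 and 0.71 TPM in SUR, 0.87, 0.37 and 0.46 TPM in LPS, and 1.28, 1.11 and 0.72 TPM in CON. The groups overlapped. The log2 fold change was -0.74 in LPS against CON (95% interval -1.60 to 0.11, edgeR adjusted p = 0.243) and 0.62 in SUR against LPS (95% interval -0.24 to 1.48, edgeR adjusted p = 0.324). Without LPS library 1 these were -1.17 and 1.04, and without LPS library 2 they were -0.53 and 0.40. The table lists Panx1 on the plus strand with a non-coding transcript in its span, whereas RefSeq places the gene on the minus strand, so its counts are uncertain.

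**Figure D2:**
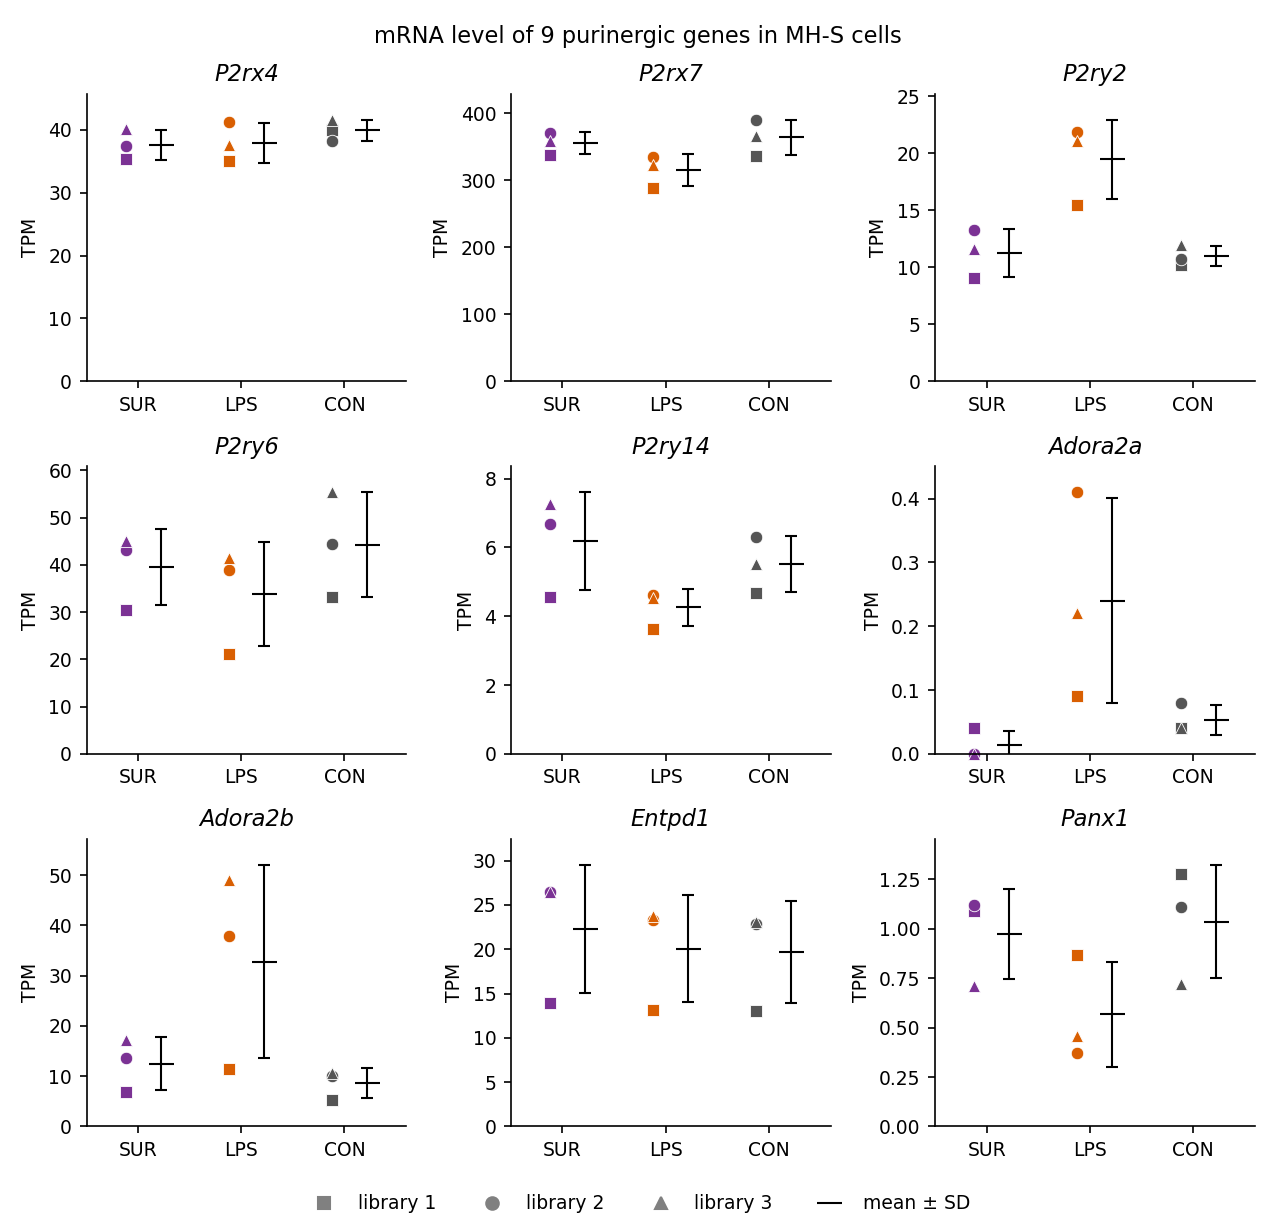
TPM of each of the 9 genes per library, with SUR, LPS and CON from left to right, markers for library numbers 1 to 3 and black bars for the mean ± SD of 3 libraries. P2ry2 and Adora2b have their highest means in LPS, at 19.5 and 32.8 TPM; the SD bar of Adora2a in SUR is drawn only above 0.

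Of the 8 members that passed the count filter, 2 rose and 0 fell in LPS against CON, against 18.3% of all tested genes called (8.98% higher and 9.36% lower). In SUR against LPS 0 rose and 1 fell, against 17.2% called (9.29% higher and 7.93% lower). In SUR against CON, edgeR called 0 of 8 members, with 0 at an unadjusted p under 0.05 and 0 called by DESeq2 or limma-voom, against 0.425% of all tested genes called (0.39% higher and 0.0355% lower). In that comparison the log2 fold changes of members other than P2ry2 and Adora2b lay between -0.19 (P2ry6, 95% interval -0.86 to 0.47) and 0.16 (Entpd1, 95% interval -0.62 to 0.95). Intervals of this width do not show that SUR and CON were alike. In LPS against CON and SUR against LPS the members' counts were near these background shares and are no result about the members as a group. With the library number as a block, 3 rose and 2 fell in LPS against CON (41.8% of all genes called, 20.1% higher and 21.7% lower). With that block 1 rose and 3 fell in SUR against LPS (45.3% called, 22.6% higher and 22.7% lower), and 0 were called in SUR against CON (11.5% called, 7.37% higher and 4.18% lower). CPM ranges did not overlap for 2 of 8 members in LPS against CON (32% of all genes), 1 of 8 in SUR against LPS (34.9%) and 0 of 8 in SUR against CON (15%). The median log2 fold change of the 8 members was -0.03 in LPS against CON, 0.04 in SUR against LPS and -0.01 in SUR against CON, against -0.01 over all tested genes in each.

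**Figure D3:**
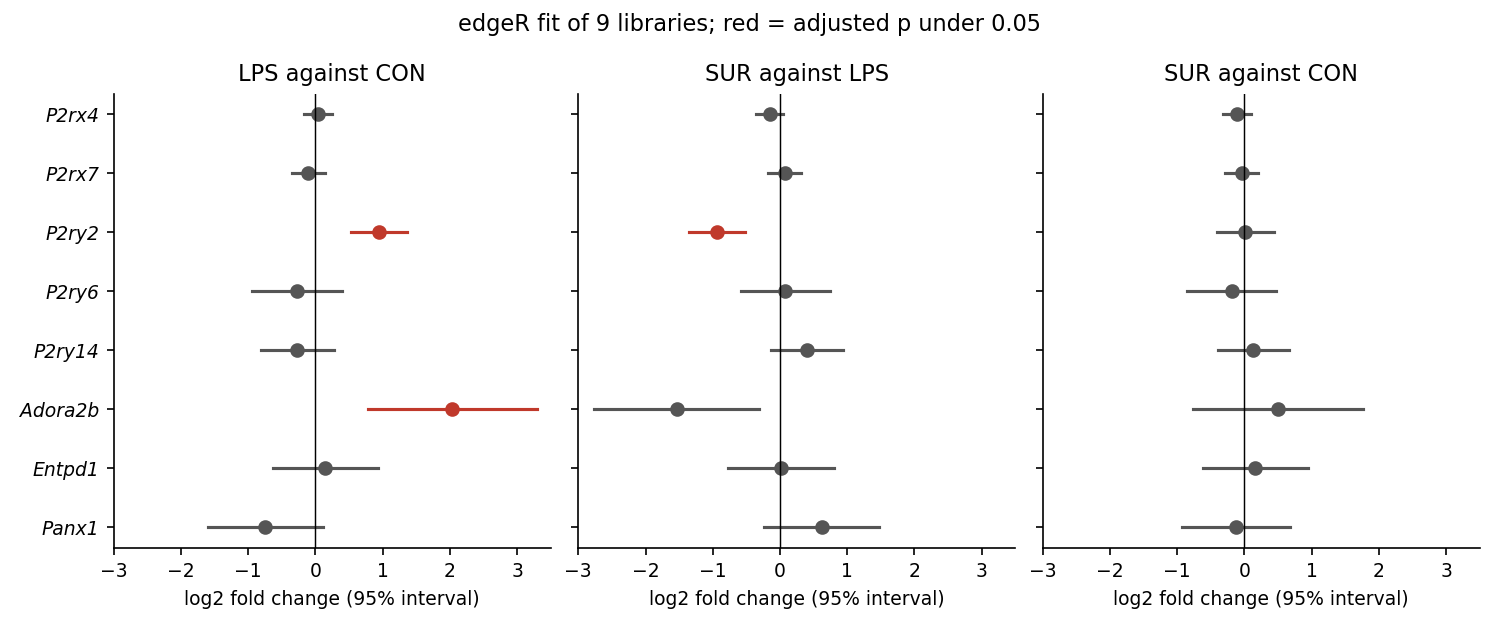
Log2 fold changes of the 8 tested members with 95% intervals for LPS against CON, SUR against LPS and SUR against CON; red marks an edgeR adjusted p under 0.05. P2ry2 is red in the first 2 panels, at 0.95 and -0.93, Adora2b in the first, at 2.04, and no member is red in SUR against CON.

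Among the members, libraries numbered 1 stood low. Library 1 was the lowest of its group in all 3 groups in CPM for 7 of the 8 members, all but Panx1, whereas this held for 25.8% of tested genes. The excess of library 1 over the mean of libraries 2 and 3 in log2 CPM was -1.22 in SUR, -1.95 in LPS and -1.03 in CON for Adora2b, and -0.99 in SUR, -0.89 in LPS and -0.87 in CON for Entpd1. Comparing same-numbered libraries, P2ry2 differed by 0.72, 1.11 and 0.95 in log2 CPM in LPS against CON, and by -0.94, -0.85 and -1.01 in SUR against LPS. Adora2b differed by 1.23, 1.98 and 2.33 in LPS against CON, and by -0.90, -1.60 and -1.65 in SUR against LPS. In each of these comparisons both genes differed in 1 direction in all 3 numbers. Of 10 tested macrophage markers, 7 had library 1 lowest in all 3 groups as well, so this is not particular to the purinergic genes. What the library number stands for is not given by the labels. Without the libraries numbered 1, P2ry2 and Adora2b were the 2 members called in LPS against CON and in SUR against LPS.

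**Figure D4:**
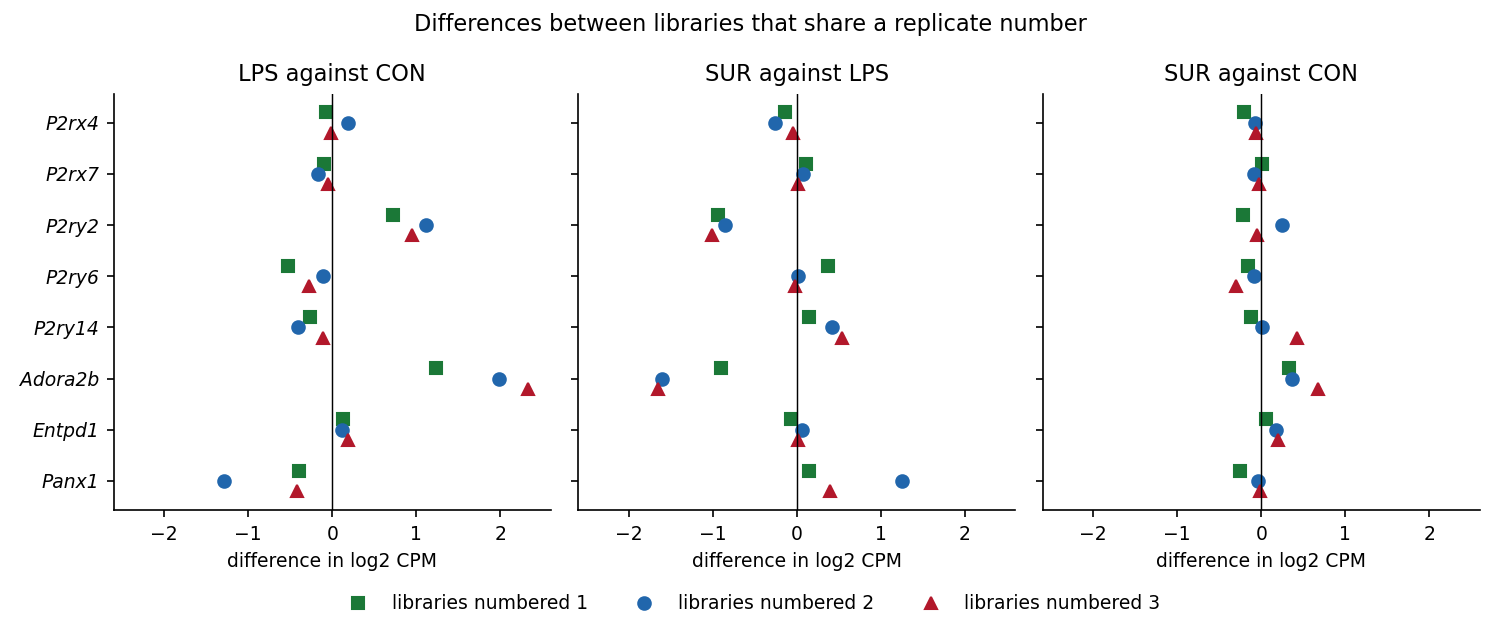
Differences in log2 CPM between same-numbered libraries for the 8 tested members, with squares, circles and triangles for numbers 1, 2 and 3. P2ry2 and Adora2b lie right of 0 in LPS against CON (0.72 to 1.11 and 1.23 to 2.33) and left of 0 in SUR against LPS (-1.01 to -0.85 and -1.65 to -0.90) for every number.

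The remaining genes of the same pathways were read from lists of receptors, nucleotide-hydrolysing enzymes, release routes, adenosine handling and coupling proteins. Their median log2 fold changes are given beside that of all tested genes, which was -0.01 in each comparison. Of 4 tested P2X receptor genes edgeR called 0 in any comparison, with 0 at an unadjusted p under 0.05 and 0 by DESeq2, and medians of -0.03 in LPS against CON and -0.02 in SUR against LPS. With the block 1 fell in LPS against CON (P2rx7) and 1 in SUR against LPS (P2rx4). Of 6 tested genes taken by symbol as P2Y receptors, P2ry10b among them, P2ry2 was the 1 called. It rose in LPS against CON (median of the 6 genes -0.27) and fell in SUR against LPS (median 0.10). With the block 1 rose and 1 fell in each. Of 5 tested nucleotide-hydrolysing enzymes 1 was called, Entpd6, a nucleoside diphosphatase (medians -0.03 in LPS against CON and 0.11 in SUR against LPS). With the block 1 rose and 2 fell in LPS against CON, and 2 rose in SUR against LPS. Entpd6 had 26.6 ± 1.76 TPM in SUR, 18.2 ± 1.40 TPM in LPS and 25.8 ± 2.19 TPM in CON (SD, n = 3 each), with log2 fold changes of -0.40 in LPS against CON (edgeR adjusted p = 0.0139) and 0.42 in SUR against LPS (edgeR adjusted p = 0.0124). The first call was lost without CON library 3 or LPS library 2, and the second without LPS library 2. Over all 8 pathway lists, edgeR called 0 of 61 tested genes in SUR against CON, with 6 at an unadjusted p under 0.05, 2 called by DESeq2, 0 by limma-voom and 7 with the block, against 0.425% of all tested genes called, or 11.5% with the block. Of the same 61 genes, 14 were called in LPS against CON (18.3% of all genes) and 10 in SUR against LPS (17.2%). With the block 31 were called in LPS against CON (41.8% of all genes) and 25 in SUR against LPS (45.3%). The counts of called genes in each list are to be read against these shares.

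Of 9 tested release channels and carriers, 2 rose and 1 fell in LPS against CON, and 2 rose and 1 fell in SUR against LPS (medians 0.04 and 0.16). With the block 4 rose and 2 fell in LPS against CON, and 3 rose and 3 fell in SUR against LPS. Calhm2, a member of the calcium homeostasis modulator channels, moved most steadily. It had 27.6 ± 2.64 TPM in SUR, 10.4 ± 1.05 TPM in LPS and 24.6 ± 3.34 TPM in CON (SD, n = 3 each), falling by 1.13 on the log2 scale in LPS against CON (edgeR adjusted p = 0.000556) and rising by 1.26 in SUR against LPS (edgeR adjusted p = 0.000514). Both Calhm2 calls held in every alternative setting. Gja1, connexin 43, rose by 1.76 in LPS against CON (edgeR adjusted p = 0.0464), a call lost without CON library 2 or 3, any 1 of the 3 LPS libraries, or SUR library 2 or 3, or with only the 2 groups in the fit. Gja1 was low, at 1.72 ± 0.80 TPM in SUR, 4.49 ± 2.35 TPM in LPS and 1.43 ± 1.00 TPM in CON (SD, n = 3 each). With 0.72 TPM in CON library 3 it missed the level taken as expressed. Gja1 was at -1.53 in SUR against LPS (edgeR adjusted p = 0.0753). It was called lower in SUR by DESeq2 (DESeq2 adjusted p = 0.0222) and with the block, at -1.52 (edgeR adjusted p = 1.61e-05). Lrrc8c, a subunit of volume-regulated anion channels, rose by 0.47 in LPS against CON (edgeR adjusted p = 0.0352), a call lost without any 1 CON library, LPS library 2 or 3, or SUR library 3, with upper-quartile scaling or with only the 2 groups. It fell by 0.45 in SUR against LPS (edgeR adjusted p = 0.0454), a call lost without CON library 2 or 3, LPS library 2 or 3, or any 1 SUR library, with upper-quartile scaling, limma-voom, FPKM or only the 2 groups. Lrrc8a, the obligatory subunit of these channels, rose by 0.45 in SUR against LPS (edgeR adjusted p = 0.0208), a call lost without LPS library 2 or 3, or SUR library 1 or 3. Lrrc8a was called lower in LPS against CON with the block, at -0.24 (edgeR adjusted p = 0.0235), and not without it. Lrrc8d, another subunit, was named after its values were seen. It had 51.89, 56.95 and 45.48 TPM in SUR and 40.62, 37.16 and 34.2 TPM in CON. SUR against CON gave 0.45 (edgeR adjusted p = 0.128). DESeq2 (DESeq2 adjusted p = 0.0032) and the block (edgeR adjusted p = 0.000532) called it higher in SUR. With the block it was also called higher in LPS against CON, at 0.29 (edgeR adjusted p = 0.000896). In SUR against LPS it was so called at 0.16 (edgeR adjusted p = 0.021).

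Of 8 tested genes of adenosine uptake and metabolism, 2 nucleoside transporters fell in LPS against CON (median -0.02) and 1 rose in SUR against LPS (median -0.03). With the block 1 rose and 3 fell in LPS against CON, and 2 rose and 1 fell in SUR against LPS. Slc29a2 (ENT2) had 7.29 ± 0.372 TPM in SUR, 5.05 ± 0.153 TPM in LPS and 9.21 ± 0.562 TPM in CON (SD, n = 3 each). It fell by 0.76 on the log2 scale in LPS against CON (edgeR adjusted p = 0.00103) and rose by 0.40 in SUR against LPS (edgeR adjusted p = 0.027), the second call lost without the count filter, with only the 2 groups, or without any 1 LPS library or SUR library 2 or 3. With the block Slc29a2 was called lower in SUR against CON, at -0.36 (edgeR adjusted p = 0.021). Slc29a3 (ENT3) fell by 0.69 in LPS against CON (edgeR adjusted p = 0.0371), a call lost without CON library 2 or 3, any 1 LPS library, or SUR library 3, or with only the 2 groups. With the block alone Slc29a3 was called higher in SUR against LPS, at 0.49 (edgeR adjusted p = 6.02e-05), and lower in SUR against CON, at -0.20 (edgeR adjusted p = 0.0484).

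Of 21 tested coupling genes, 3 rose and 2 fell in LPS against CON, and 1 rose and 2 fell in SUR against LPS (medians -0.04 and 0.01). With the block 4 rose and 6 fell in LPS against CON, and 3 rose and 4 fell in SUR against LPS. Gna11, a Gq-class alpha subunit used by P2Y2 and P2Y6, had 11.7 ± 1.21 TPM in SUR, 5.22 ± 0.585 TPM in LPS and 12.5 ± 1.16 TPM in CON (SD, n = 3 each). It fell by 1.14 on the log2 scale in LPS against CON (edgeR adjusted p = 0.0005) and rose by 1.02 in SUR against LPS (edgeR adjusted p = 0.00126), and both calls held in every alternative setting. Rgs1, which speeds the shut-off of Gi and Gq signals, rose by 2.02 in LPS against CON (edgeR adjusted p = 0.00138) and fell by 1.20 in SUR against LPS (edgeR adjusted p = 0.0179), the second call lost without LPS library 2 or SUR library 2 or 3. Rgs2, which acts on Gq, fell by 1.45 in LPS against CON (edgeR adjusted p = 0.00829). Rgs2 was at 0.70 in SUR against LPS (edgeR adjusted p = 0.142) and was called higher in SUR with the block alone, at 0.71 (edgeR adjusted p = 0.0281). In SUR against CON, Rgs1 (0.82 with the block, edgeR adjusted p = 0.00107), Rgs2 (-0.79, edgeR adjusted p = 0.036) and Gnaq (0.17, edgeR adjusted p = 0.0227) were called by edgeR with the block and not without it. Gnaq was also called there by DESeq2 without the block (DESeq2 adjusted p = 0.0428). Gna13, another G protein alpha subunit, rose by 0.43 in LPS against CON (edgeR adjusted p = 0.0292) and fell by 0.48 in SUR against LPS (edgeR adjusted p = 0.0183). Its TPM ranges overlapped in both comparisons, and both calls were lost on the TPM and FPKM scales. The first was also lost with upper-quartile scaling and without CON library 2 or 3 or any 1 LPS library, and the second without LPS library 1 or 2 or SUR library 2 or 3. Gnaq, the Gq alpha subunit, named after its values were seen as the remaining called gene, rose by 0.22 in LPS against CON (edgeR adjusted p = 0.0209). The Gnaq call was lost with upper-quartile scaling, on the TPM and FPKM scales, with only the 2 groups in the fit, and without CON library 3 or LPS library 1 or 3.

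Of 7 tested genes linked to P2X7, only Nlrp3, the inflammasome sensor that P2X7 opening triggers, was called (medians 0.08 in LPS against CON and -0.04 in SUR against LPS). With the block 3 rose and 1 fell in LPS against CON, and 1 rose and 2 fell in SUR against LPS. Nlrp3 had 81.0 ± 7.82 TPM in SUR, 367 ± 26.2 TPM in LPS and 34.3 ± 23.6 TPM in CON (SD, n = 3 each), rising by 3.53 on the log2 scale in LPS against CON (edgeR adjusted p = 0.0005) and falling by 2.31 in SUR against LPS (edgeR adjusted p = 0.00429). In SUR against CON Nlrp3 was at 1.22 (edgeR adjusted p = 0.301) and was called higher in SUR with the block, at 1.33 (edgeR adjusted p = 0.0174). The macrophage marker Csf1r rose by 0.31 in LPS against CON (edgeR adjusted p = 0.00743) and fell by 0.23 in SUR against LPS (edgeR adjusted p = 0.0326). Both Csf1r calls were lost on the TPM and FPKM scales. The second was also lost with upper-quartile scaling and without CON library 3, any 1 LPS library or any 1 SUR library.

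**Figure D5:**
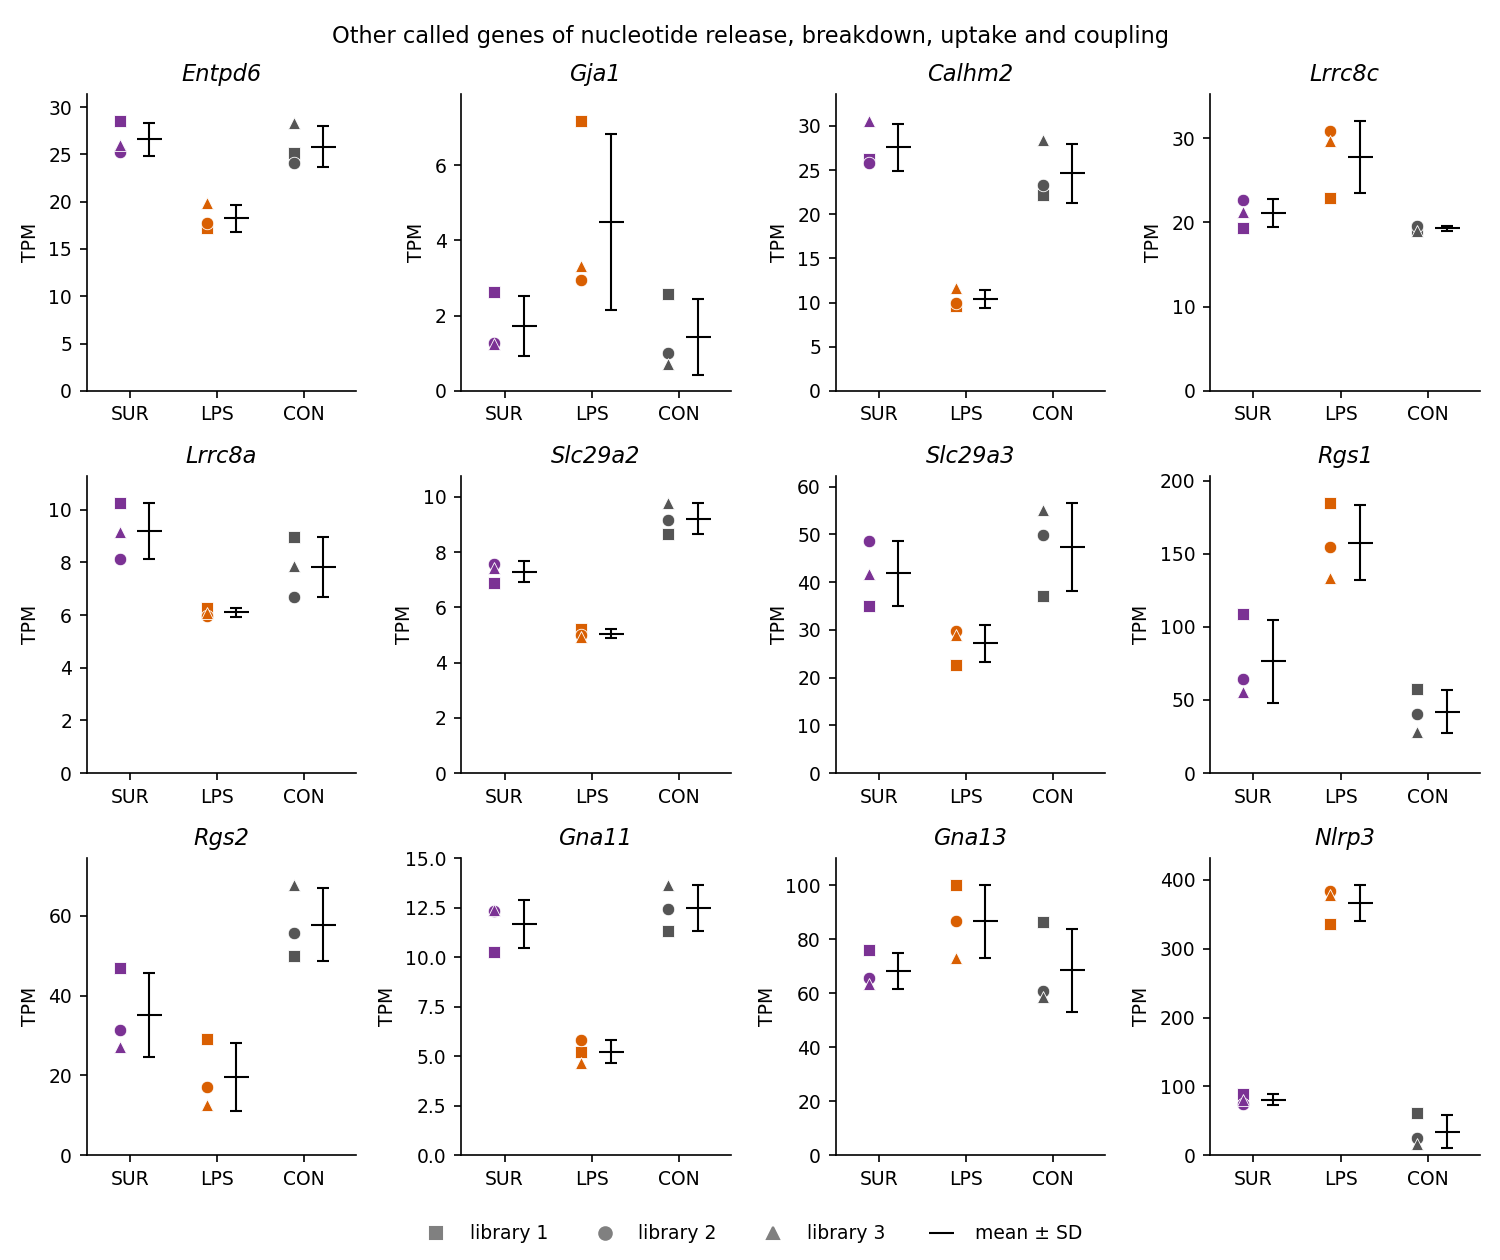
TPM per library of 12 called genes of the wider pathway, with SUR, LPS and CON from left to right, markers for library numbers 1 to 3 and black bars for the mean ± SD of 3 libraries. Calhm2 and Gna11 are lowest in LPS, at 10.4 and 5.22 TPM, and Nlrp3 is highest in LPS, at 367 TPM.

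Over the 9 libraries, the tested genes whose log2 CPM pattern was most like that of P2ry2 were Srebf2 (Pearson r = 0.990), Vasp (r = 0.988) and Actg1 (r = 0.983). For Adora2b they were Pilra (r = 0.991), Clec5a (r = 0.990) and Slc31a1 (r = 0.990). These are descriptions over libraries that share group and library number, and P2ry2 and Adora2b were themselves alike (r = 0.91). With the block, Pilra (1.00, edgeR adjusted p = 5.37e-06) and Clec5a (0.94, edgeR adjusted p = 5.13e-06) were called higher in LPS against CON. In SUR against LPS the block called Pilra (-0.87, edgeR adjusted p = 1.69e-05), Clec5a (-0.70, edgeR adjusted p = 4.76e-05) and Slc31a1 (-0.33, edgeR adjusted p = 0.0002175) lower. Without the block edgeR called none of these changes. DESeq2 without the block called Pilra and Clec5a higher in LPS against CON (DESeq2 adjusted p = 0.0145 and 0.0167). In SUR against LPS it called Pilra lower (DESeq2 adjusted p = 0.0444), but not Clec5a or Slc31a1 (DESeq2 adjusted p = 0.0974 and 0.0509).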

How the data were processed

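MH-S mRNA was measured in 9 libraries, 3 each of SUR, LPS and CON, grouped by sample title. HISAT2 2.0.4 and the build GRCm38 are named in the submitters' processing notes; the read counter is not given in the sources used here. Expected counts, deposited without normalization per the file headers, estimate the reads of each gene; 93.4% of values were whole (no remainder) and all were rounded. The deposited TPM and FPKM values were scaled by the authors for length and depth, per the file headers, and TPM sums lay between 999999 and 1000001. The authors' deposited log2 fold changes and q-values (adjusted p-values) were copied for all 9 members and are printed for P2ry2 and Adora2b only.

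Genes were tested with edgeR 4.0.16 (R 4.3.3): filterByExpr (11281 genes kept, 3490 not tested), TMM scaling, all 9 libraries in 1 quasi-likelihood fit without covariates, and Benjamini-Hochberg adjustment over all tested genes at 0.05 ("edgeR adjusted p"). Standard errors were derived from the F statistic. limma 3.58.1 and DESeq2 1.42.0 served as alternatives, with other scalings, no filter, TPM and FPKM on a log scale (pseudocounts 1 and 0.1), only the groups compared, and each library left out. In simulated counts on 11281 genes with 200 changed 2-fold, the fit of LPS against CON recovered 78.5%, with 14 false calls. The simulated libraries were drawn independently, without an effect of library number, so these figures do not cover that effect. Drawing used matplotlib 3.10.9.

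Library numbers are shared across groups. The deviations of same-numbered libraries from their group means correlated at 0.435 to 0.801 in every pair. Libraries 2 and 3 of different groups also correlated, at 0.347 to 0.437, which overlaps that range. Libraries 1 correlated with libraries 2 and 3 of other groups at -0.643 to -0.521. Within each pair of groups, however, libraries 2 and 3 correlated more with the same number than with the other. CON 3 was at 0.447 with SUR 3 and 0.421 with SUR 2. LPS 2 was at 0.557 with SUR 2 and 0.408 with SUR 3. These values set number 1 apart and also follow the number for 2 and 3. Whether the numbers mark pairs was not tested. No label says what the numbers mark, so the main fit did not pair libraries by number. Fits with the number as a block are an alternative, given where they change the call of a named gene. Since separate cultures are not stated, the p-values reflect spread that may be technical.

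All 9 members are named, with up to 4 called genes of each list per comparison by size of change, and the 3 genes most like each called member. Members and lists were chosen with earlier results of these data known. Overlapping genes are uncertain, since use of strand in counting is not stated.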

Additional observations from a re-analysis of the deposited data

How the results depend on the processing

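With the replicate block (library number) the members called were 5 in LPS against CON and 4 in SUR against LPS, and the genes called were 4714, 5109 and 1302 in LPS against CON, SUR against LPS and SUR against CON; the block added the calls of P2rx7, P2ry6 and Entpd1 in LPS against CON and of P2rx4, P2ry14 and Adora2b in SUR against LPS, and changed no other call of a member. In LPS against CON 1 member, P2ry2, was called with limma-voom, with only the 2 groups, and with limma on log2(TPM + 1), log2(TPM + 0.1) and log2(FPKM + 1). The Adora2b call was lost in each of these settings. Leaving out single libraries gave 1 to 2 members and 1379 to 2075 genes. In SUR against LPS 2 members were called by DESeq2 (P2ry2 and Adora2b), 2 without the count filter (P2ry2 and Adora2a) and 2 without all libraries numbered 1; leaving out single libraries gave 1 to 2 members and 1208 to 2054 genes. In SUR against CON 0 members were called in every setting; genes called were 259 with DESeq2, 4 with only the 2 groups, and 0 to 168 when single libraries were left out. Without the libraries numbered 1, genes called were 3415 in LPS against CON, 3391 in SUR against LPS and 587 in SUR against CON.

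Changes of sign concerned uncalled log2 fold changes only. In LPS against CON, P2rx4 was -0.0549 with upper-quartile scaling, -0.0737 and -0.0755 on the TPM + 1 and TPM + 0.1 scales and -0.0956 on FPKM. In SUR against LPS, P2ry6 was -0.0163 without number 1 and Entpd1 -0.0017 without the filter; P2ry2 was -0.0087 in SUR against CON with limma-voom. Leaving out single libraries gave, in LPS against CON, P2rx4 -0.0285 to 0.111 and Entpd1 -0.0791 to 0.389; in SUR against LPS, P2rx7 -0.0127 to 0.118, P2ry6 -0.18 to 0.26 and Entpd1 -0.23 to 0.26; and in SUR against CON, P2rx7 -0.128 to 0.0374, P2ry2 -0.14 to 0.17, P2ry14 -0.0205 to 0.339, Entpd1 -0.079 to 0.426 and Panx1 -0.333 to 0.0517. The cause was not tested. Ranges without a change of sign were, in LPS against CON, P2rx7 -0.18 to -0.03, P2ry6 -0.45 to -0.01, P2ry14 -0.38 to -0.12 and Panx1 -1.17 to -0.53; and in SUR against LPS, P2rx4 -0.22 to -0.08, P2ry14 0.25 to 0.60 and Panx1 0.40 to 1.04. Low counts limit Adora2a and Panx1.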
